A study of Mus musculus with 6 samples.

Results

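The genes described here encode the proteins of the mitochondrial ribosome and carry the symbols Mrpl (large subunit) and Mrps (small subunit). They were chosen by symbol, as every listed gene named Mrpl or Mrps followed by a digit with at least 1 FPKM (sequenced fragments scaled for exon length and for library size) in at least 3 libraries. All 77 genes with such a symbol met this rule, of 18046 genes listed and 10138 that reached the same level. The lowest value of any of them in any library was 5.17 FPKM, so the level required removed none. Of the 77 proteins, 50 belong to the large subunit and 26 to the small subunit, and Mrps36 belongs to neither.

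The cells were naive CD4+ T cells of C57BL/6 mouse spleen (3 weeks of age in the labels), stimulated in culture through CD3 and CD28 for 3 days in Th1-polarizing medium. One group of 3 libraries received a vehicle and the other group of 3 received LPC at 20 µM. The labels neither spell out LPC nor name the vehicle. Whether replicates are separate animals, cultures or repeats of 1 culture is not stated, so a p-value here covers the spread among these libraries alone, which may be technical.

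The mitochondrial ribosome sits in the mitochondrial matrix and makes the few subunits of the respiratory chain and ATP synthase that are encoded by mitochondrial DNA. Its ribosomal RNAs come from mitochondrial DNA, but all its proteins are encoded in the nucleus, made in the cytosol and imported. Part of them have a counterpart in the bacterial ribosome (48 of the 77 genes), and the others are particular to mitochondria. T cells build up mitochondrial mass and mitochondrial translation when they leave the naive state and begin to divide.

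The libraries summed to 556561 to 641026 FPKM, with 10002 to 10139 genes at 1 FPKM or more. LPC replicate 3 stood apart from the others: it had the highest sum and 17.9% of genes at 0, against 19.4 to 20.2% elsewhere. Read totals are not part of the values, and the low values came nearest to whole reads at 19.0 to 19.5 M reads per library, which is an estimate. The CD4 T cell markers (5 listed) ranged from 91.17 to 299.99 FPKM, and their sum was 863 to 886 with vehicle and 830 to 896 with LPC. Cd4 itself was at 185.33 to 205.20 FPKM with vehicle and 143.89 to 177.07 with LPC, and Cd5 at 262.21 to 282.75 and 291.59 to 299.99; neither passed the test. Of the CD8 markers, Cd8a stayed at or under 0.33 FPKM, while Cd8b1 was 13.35 to 14.19 with vehicle and 10.57 to 12.55 with LPC. Summed B cell markers (5 genes) were 1.14 to 1.17 FPKM with vehicle and 0.6 to 0.91 with LPC, and summed myeloid markers (5 genes) 0.05 to 0.19 and 0.33 to 0.43. Summed dendritic cell markers (4 genes, nearly all of it Zbtb46) were 2.86 to 2.94 FPKM and 1.25 to 1.61. Only 1 of these dendritic markers was tested, and it was called lower with LPC (log2 change -0.68). NK (3 genes), neutrophil (3) and erythroid (4) markers summed to at most 0.02, 0.1 and 0.62 FPKM, and 2 of the 3 NK markers were at 0 in every library. The part of these differences in the results below was not tested, and in bulk RNA fewer cells of a type and less RNA per cell cannot be told apart.

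With LPC, 5 of the 77 genes rose and 0 fell at an adjusted p under 0.05 (limma on log2(FPKM + 1), Benjamini-Hochberg adjustment over all tested genes). These were Mrpl20, Mrpl12, Mrps11, Mrps18b and Mrpl38, with group means 1.23 to 1.65 times those of vehicle. None reached the additional 2-fold rule given in the labels. The share that rose, 6.49%, was close to the 5.82% of all tested genes called higher, so the count by itself does not set these genes apart. The count of 0 lower genes stands beside 7.91% of all tested genes called lower, and 13.7% were called in either direction.

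The other 72 genes did not pass, but most of their values lay above 0. The log2 change was positive for 68 of the 77 genes (88.3%), against 41.7% of all tested genes. Its median was 0.15 on the log2(FPKM + 1) scale (quartiles 0.05 and 0.27, range -0.13 to 0.69), against -0.04 for all tested genes. At an unadjusted p under 0.05, 28 of the genes were higher and 0 lower, where 12.2% and 17.9% of all tested genes met that mark. The 3 LPC values lay above all 3 vehicle values for 24 genes and below them for 0, against 13.7% and 20.7% of all tested genes. For the genes that did not pass, the 95% intervals of the change together spanned -0.35 to 0.77. The interval included 0 for 49 of these 72 genes and lay wholly above 0 for 23, before adjustment over all tested genes.

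**Figure D1:**
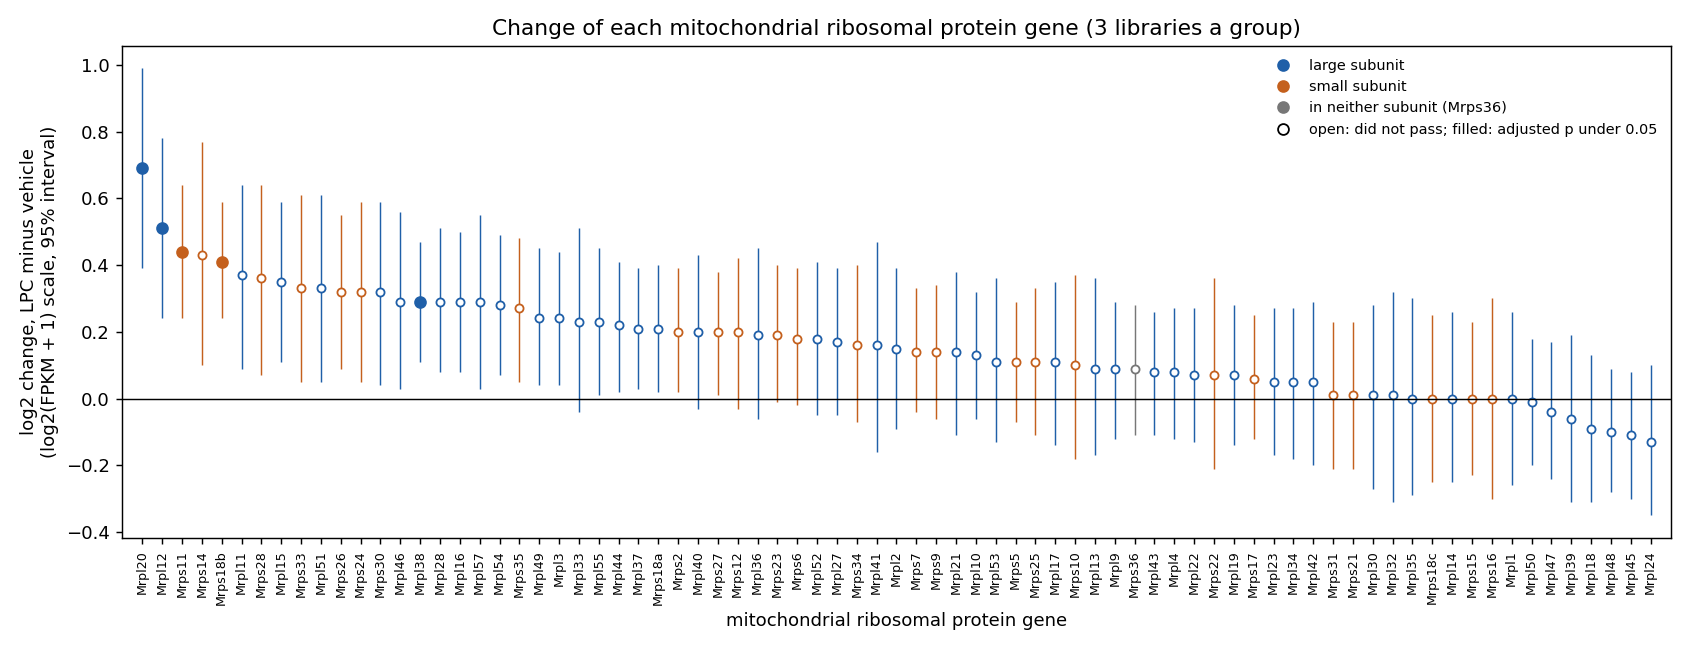
Log2 change (LPC minus vehicle, log2(FPKM + 1) scale) of each of the 77 genes with its 95% interval, 3 libraries a group, ordered by size and coloured by subunit. Filled points are the 5 genes with an adjusted p under 0.05; 68 of the 77 points lie above 0 and the lowest, Mrpl24, is at -0.13.

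Mrpl20, whose bacterial counterpart binds the large ribosomal RNA early in assembly, had the largest change. Its levels were 72.19, 60.30 and 69.77 FPKM in vehicle replicates 1 to 3 and 98.45, 91.64 and 142.65 FPKM in LPC replicates 1 to 3. Every LPC library was above every vehicle library, and LPC replicate 3 was far above the other two. The means were 67.4 ± 6.28 and 111 ± 27.7 FPKM (SD, n = 3 each). The log2 change was 0.69 (SE 0.14, limma adjusted p = 0.00766), and without LPC replicate 3 it was 0.49 (adjusted p = 0.00504). The gene lies at chr4:155802878-155808831 (GRCm38).

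Mrpl12 forms the stalk of the large subunit that recruits the translation GTPases, and the free protein is also known to bind the mitochondrial RNA polymerase. Its levels were 92.01, 88.28 and 105.32 FPKM with vehicle and 141.79, 109.64 and 160.95 FPKM with LPC. The groups did not overlap, but LPC replicate 2 was only just above the highest vehicle library. The means were 95.2 ± 8.96 and 137 ± 25.9 FPKM (SD, n = 3 each), with a log2 change of 0.51 (SE 0.13, limma adjusted p = 0.0182). It missed the threshold when any 1 of 3 libraries was left out: vehicle replicate 1 (adjusted p = 0.0741), vehicle replicate 2 (0.0547) and LPC replicate 1 (0.0807). Mrpl12 lies at chr11:120484637-120488754.

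Mrps11 lies on the platform of the small subunit, where it contacts the small ribosomal RNA. It was at 28.77, 27.01 and 28.85 FPKM with vehicle and at 37.34, 35.88 and 43.28 FPKM with LPC, with a wide gap between the groups. The means were 28.2 ± 1.04 and 38.8 ± 3.92 FPKM (SD, n = 3 each), the log2 change 0.44 (SE 0.09, limma adjusted p = 0.009). Its position is chr7:78783131-78792988.

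Mrps18b, one of 3 mammalian relatives of bacterial protein S18, had the tightest values of the 5. It was at 73.61, 72.78 and 75.93 FPKM with vehicle and at 99.43, 97.31 and 99.84 FPKM with LPC. Here LPC replicate 3 was level with the other LPC libraries. The means were 74.1 ± 1.63 and 98.9 ± 1.36 FPKM (SD, n = 3 each), the log2 change 0.41 (SE 0.08, limma adjusted p = 0.00695). The gene is at chr17:35910380-35916440. Mrps11 and Mrps18b passed under all 14 alternatives run.

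Mrpl38 is a large subunit protein particular to mitochondria. Its levels were 42.04, 39.65 and 39.24 FPKM with vehicle and 51.74, 47.47 and 49.68 FPKM with LPC, again without overlap. The means were 40.3 ± 1.51 and 49.6 ± 2.14 FPKM (SD, n = 3 each), the log2 change 0.29 (SE 0.08, limma adjusted p = 0.0355). It missed the threshold with vehicle replicate 1 (adjusted p = 0.099), 2 (0.157) or 3 (0.116) left out, with LPC replicate 1 left out (0.0969), and with each library rescaled to an equal sum (0.18). Mrpl38 lies at chr11:116131817-116138868.

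**Figure D2:**
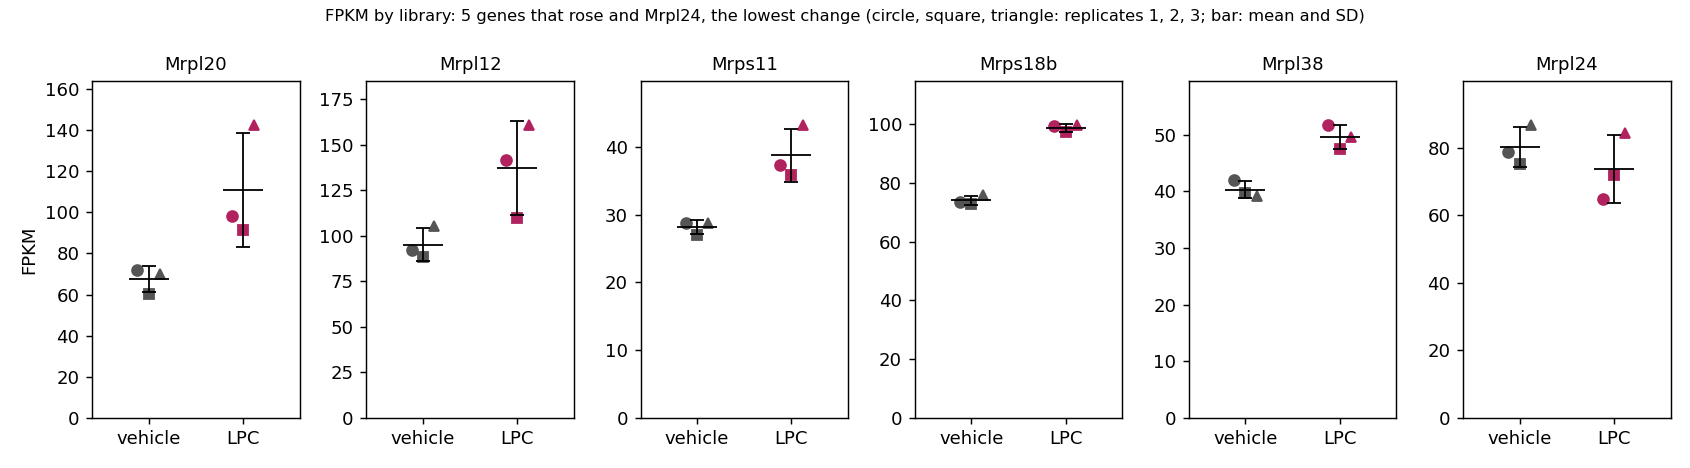
FPKM of the 5 genes that rose and of Mrpl24, the gene with the lowest change, in each library (circle, square and triangle are replicates 1, 2 and 3; bars are the mean and SD of 3 libraries). The groups are apart in the 5 genes that rose, while Mrpl24 overlaps, with 75.37 to 86.83 FPKM with vehicle and 64.88 to 84.58 with LPC.

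Beside the genes that passed, 4 of the 8 with the largest changes did not. Mrps14 of the small subunit head was at 21.97, 18.60 and 24.50 FPKM with vehicle and at 22.69, 28.64 and 39.18 with LPC. The groups overlapped through LPC replicate 1, and the log2 change of 0.43 had an adjusted p of 0.0813 by limma, or 0.0374 with LPC replicate 1 left out and 0.048 with vehicle replicate 3 left out. Mrpl11, at the base of the large subunit stalk, had 12.75, 10.56 and 11.19 FPKM with vehicle and 13.12, 13.77 and 18.89 with LPC (log2 change 0.37, adjusted p = 0.0702 by limma). The log2 changes of Mrps28 and Mrpl15 were 0.36 and 0.35 (adjusted p = 0.0875 and 0.0554 by limma); that of Mrpl15 passed without vehicle replicate 3 (0.0485).

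The 8 lowest changes were small. Mrpl24, a large subunit protein near the exit tunnel, was at 78.87, 75.37 and 86.83 FPKM with vehicle and at 64.88, 71.89 and 84.58 with LPC, a log2 change of -0.13 (95% interval -0.35 to 0.10). Mrpl45, which resembles the import protein Tim44 and faces the inner membrane, had a log2 change of -0.11. The values of Mrpl48, Mrpl18, Mrpl39 and Mrpl47 were -0.10, -0.09, -0.06 and -0.04, and those of Mrpl50 and Mrpl1 about 0. In Mrpl24, Mrpl45, Mrpl39, Mrpl18, Mrpl47 and Mrpl1 the lowest library of all was LPC replicate 1. None of these genes passed the test, and the sign of 5 of them (Mrpl1, Mrpl18, Mrpl39, Mrpl47 and Mrpl50) turned under at least 1 alternative.

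By level, the genes spread over a wide range. The highest mean FPKM over the 6 libraries were those of Mrpl52 (179), Mrpl23 (122), Mrpl12 (116), Mrpl33 (116), Mrps16 (112) and Mrpl30 (106). Of these, only Mrpl12 passed the test. Mrpl52 was at 174.47, 151.40 and 175.91 FPKM with vehicle and at 186.96, 166.96 and 216.63 with LPC, overlapping groups with a log2 change of 0.18. The log2 change was 0.23 for Mrpl33, 0.05 for Mrpl23, 0.01 for Mrpl30 and about 0 for Mrps16, with signs that turned under at least 1 alternative for Mrpl23, Mrpl30 and Mrps16. The lowest levels were those of Mrps25 (5.62), Mrpl17 (8.55), Mrpl41 (9.59) and Mrpl19 (11.9), with log2 changes of 0.11, 0.11, 0.16 and 0.07 that did not pass. Across the 77 genes the correlation of log2 change with log2 mean FPKM was r = 0.01, as a description over genes that share the same 6 libraries.

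The values of both subunits lay close together. Of the 50 large subunit genes 3 rose, 42 had positive values and the median log2 change was 0.14. Of the 26 small subunit genes 2 rose, 25 had positive values and the median was 0.17. Of all tested genes, 5.82% were called higher and 41.7% had positive values. The ratio of summed large to summed small subunit FPKM was 2.07, 2.09 and 2.08 with vehicle and 2.05, 2.03 and 2.08 with LPC, within a narrow band in every library. Genes with a bacterial counterpart had median changes of 0.11 (31 large subunit genes) and 0.14 (17 small subunit genes), and those particular to mitochondria 0.20 (19) and 0.19 (9). The mean changes lay closer, at 0.15 and 0.18 with a bacterial counterpart and 0.16 and 0.18 without. The difference between these classes was not tested.

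Several genes stand out for known roles. Mrpl10, which anchors the Mrpl12 stalk, had a log2 change of 0.13 that did not pass, beside 0.51 for Mrpl12. Mrps12, the decoding centre protein, was at 49.80, 44.14 and 45.78 FPKM with vehicle and 53.12, 46.92 and 61.06 with LPC (log2 change 0.20). Mrpl44, which has a ribonuclease III-like fold, was at 27.24, 22.78 and 25.58 FPKM with vehicle and 29.99, 28.91 and 29.28 with LPC, without overlap (log2 change 0.22, adjusted p = 0.128 by limma). Mrps27, a pentatricopeptide repeat protein, had a log2 change of 0.20 and also did not pass. Mrps30, a large subunit protein in spite of its symbol, had 0.32 (adjusted p = 0.119 by limma, and 0.0274 without LPC replicate 1). Mrps36, now known as a subunit of the 2-oxoglutarate dehydrogenase complex, had 0.09.

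Of the 3 relatives of bacterial S18, Mrps18b and Mrps18c are small subunit proteins and Mrps18a is in the large subunit. Mrps18a was at 58.21, 51.06 and 54.28 FPKM with vehicle and at 65.75, 59.81 and 63.93 with LPC (log2 change 0.21, adjusted p = 0.128 by limma). Mrps18c was at 49.15, 53.36 and 58.06 FPKM with vehicle and at 46.80, 50.29 and 64.95 with LPC, with a log2 change of about 0. The ratio of Mrps18b to Mrps18c was 1.5, 1.36 and 1.31 with vehicle and 2.12, 1.93 and 1.54 with LPC. These ratios did not overlap (two-sided exact permutation p = 0.1). Mrps18b was already known to have risen, so no conclusion is drawn from that test. The ratio of Mrps18a to Mrps18c was 1.18, 0.957 and 0.935 with vehicle and 1.4, 1.19 and 0.984 with LPC, and these overlapped.

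One library was high for most of the genes. LPC replicate 3 held the highest of the 6 values for 62 of the 77 genes (80.5%), against 17.7% of all tested genes. The same was true of 88.1% of cytosolic ribosomal protein genes and 85.7% of nuclear-encoded respiratory chain genes. The median deviation of the 77 genes from each gene's vehicle mean was 0.01, -0.07 and 0.05 in the vehicle libraries and 0.06, 0.09 and 0.31 in the LPC libraries, on the log2(FPKM + 1) scale. Vehicle replicate 2 was the lowest vehicle library for 53 genes. Without LPC replicate 3 the same 5 genes passed, 52 of 77 values were positive and the median fell from 0.15 to 0.07. Of all tested genes, 5.41% were then called higher and 45.8% had positive values, with a median of -0.02. The replicate spread was also wider with LPC: the median coefficient of variation of the 77 genes was 13.1%, against 5.69% with vehicle, and 10.6% and 6.48% over all tested genes.

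**Figure D3:**
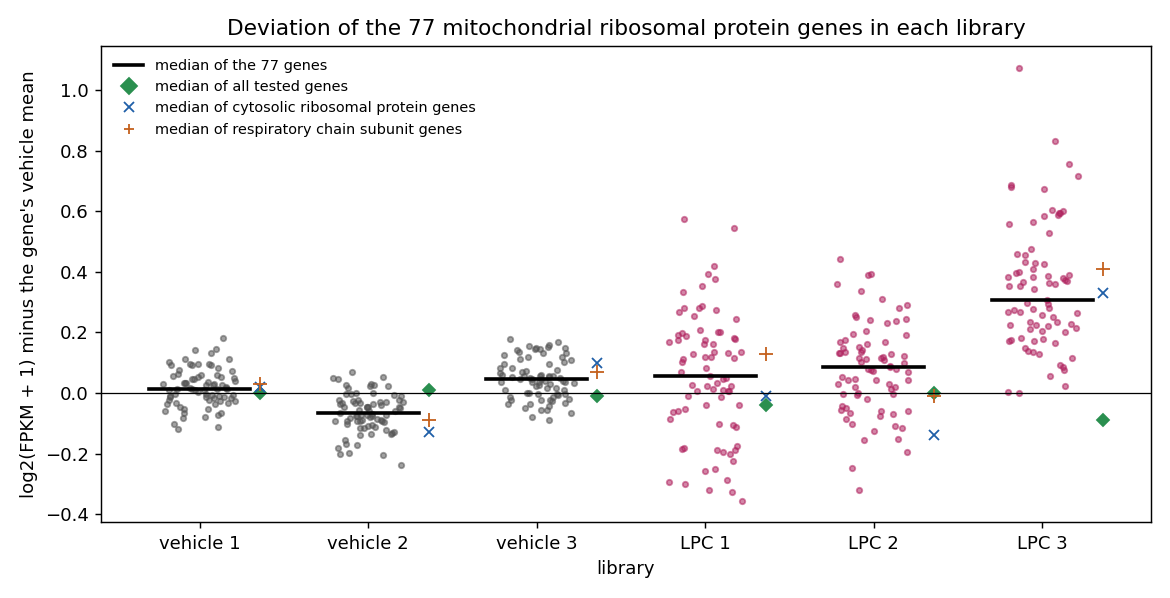
Deviation of each of the 77 genes from its vehicle mean (log2(FPKM + 1)) in each library, with the median of the genes (black line) and the medians of all tested genes, cytosolic ribosomal protein genes and respiratory chain genes (symbols). The 77 genes sit highest in LPC replicate 3 (median 0.31), where the cytosolic (0.33) and respiratory chain (0.41) genes are also highest and all tested genes are at -0.09.

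As a share of all FPKM, the 77 genes took 0.611, 0.590 and 0.610% in the vehicle libraries and 0.627, 0.640 and 0.694% in the LPC libraries. The groups did not overlap, with means of 0.604 ± 0.0118% and 0.654 ± 0.0355% (SD, n = 3 each). The typical transcript of these genes is short (median 1050 bases, against 2080 over all tested genes), and across all tested genes the log2 change had r = -0.22 with log2 length and r = 0.24 with GC content. Across the 77 genes alone these were r = -0.08 and r = 0.22. Their median GC content was 50.5%, against 50.8% over all tested genes. With each library's trend with length and GC removed, 10 of the 77 genes passed (7.49% of all tested genes were then called higher), 64 were positive and the median was 0.10. Mrpl20, Mrpl12, Mrps11 and Mrps18b were among the 10. Rescaling to the median gene moved the share of all called genes that were higher from 42.4 to 53.1% and gave 6 of the 77, with 6.37% of all tested genes called higher. There 72 of the 77 values were positive and the median was 0.20, against 51.2% and 0.01 over all tested genes. With each library rescaled to an equal sum, 4 of the 77 passed, 57 were positive and the median was 0.10. Of all tested genes, 3.09% were then called higher and 33.4% had positive values, with a median of -0.09.

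To show what lies upstream of Mrpl20, Mrpl12, Mrps11 and Mrps18b, which rose, and of the other S18 relatives, the bases before each start are printed here from RefSeq (GRCm38.p6), on the gene's own strand. Mrpl38 is not among them. Bases of a neighbouring gene are left out. Capitals mark SP1 (GGGCGG), ETS (CCGGAAG), YY1 (AAGATGGC), NRF1 core (GCATGCGC) and E-box (CACGTG) letters on either strand.
Mrpl20 (chr4:155802728-155802877, plus strand): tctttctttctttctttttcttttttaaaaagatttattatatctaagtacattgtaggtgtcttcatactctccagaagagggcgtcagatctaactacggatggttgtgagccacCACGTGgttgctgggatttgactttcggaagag
Mrpl12 (chr11:120484487-120484636, plus strand): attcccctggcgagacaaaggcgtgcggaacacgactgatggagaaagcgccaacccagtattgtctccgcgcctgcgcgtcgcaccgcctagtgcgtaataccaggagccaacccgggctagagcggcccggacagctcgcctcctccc
Mrps11 (chr7:78783090-78783130, plus strand): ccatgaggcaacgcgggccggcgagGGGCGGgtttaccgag
Mrps18b (chr17:35916441-35916511, minus strand): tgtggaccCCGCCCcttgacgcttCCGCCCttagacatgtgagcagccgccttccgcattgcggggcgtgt
Mrps18a (chr17:46110854-46111003, plus strand): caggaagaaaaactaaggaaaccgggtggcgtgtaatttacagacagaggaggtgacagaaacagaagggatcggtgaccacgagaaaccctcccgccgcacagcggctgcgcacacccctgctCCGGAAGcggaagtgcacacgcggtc
Mrps18c (chr5:100798662-100798758, plus strand): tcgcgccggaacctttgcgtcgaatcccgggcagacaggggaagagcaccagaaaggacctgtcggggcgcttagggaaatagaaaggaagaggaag

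Mrpl12 and Mrps18c hold none of these letters in the stretch shown, and Mrpl20 holds only an E-box. Mrps11 and Mrps18b hold SP1 letters, and Mrps18a an ETS match near its start. No motif of the 5 stands in all of the stretches shown. Motifs were also counted over the whole RefSeq windows, from 250 bases before to 50 after the start, which 74 windows of 68 of the 77 genes have. ETS letters were in 33.8% of these windows, against 19.8% of windows of tested genes and 8.86% of all windows in the table. YY1 letters were in 16.2% (4.94% and 2.75%), and the NRF1 core in 10.8% (5.64% and 2.71%). SP1 letters were in 52.7%, below the 64.2% of tested genes, and the E-box in 9.46%, against 10.4%. Over its whole window, Mrps18c held ETS, SP1 and E-box letters, and Mrps18b held ETS and NRF1 core letters beside SP1. Mrps11 and Mrps18a also held YY1 letters there, while Mrpl12 held none of the 5 motifs. The median log2 change was 0.17 in the 25 genes with ETS letters and 0.14 in the 43 without, 0.20 in the 12 with YY1 letters and 0.12 in the 56 without, and 0.10 in the 8 with the NRF1 core and 0.16 in the 60 without. A match is a description of letters, not of binding.

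Many of the genes share their upstream region with a neighbour. For 33 of the 77 (42.9%) a protein-coding gene started within 1000 bases on the other strand, against 18.4% of the tested genes found in the GENCODE annotation of GRCm38. Of these neighbours, 29 were tested, among them Mrps11 and Mrpl46 of the set itself. Of the 29, 17 had positive values and the median was 0.07, against 41.7% and -0.04 over all tested genes. Mrps11 and Mrpl46 are such a pair, and the stretch printed for Mrps11 is all that lies between their RefSeq starts. Mrpl46 was at 21.48, 20.10 and 23.08 FPKM with vehicle and at 22.26, 25.61 and 33.02 with LPC (log2 change 0.29, adjusted p = 0.127 by limma, beside 0.44 for Mrps11). The neighbour of Mrps18b is Ppp1r10, a regulator of protein phosphatase 1, which was at 54.10, 53.49 and 45.57 FPKM with vehicle and 44.55, 45.85 and 35.46 with LPC. Its log2 change of -0.28 (adjusted p = 0.103 by limma) has the opposite sign to that of Mrps18b. Sars2, the mitochondrial seryl-tRNA synthetase that starts beside Mrps12, had a log2 change of 0.31 (adjusted p = 0.076 by limma).

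**Figure D4:**
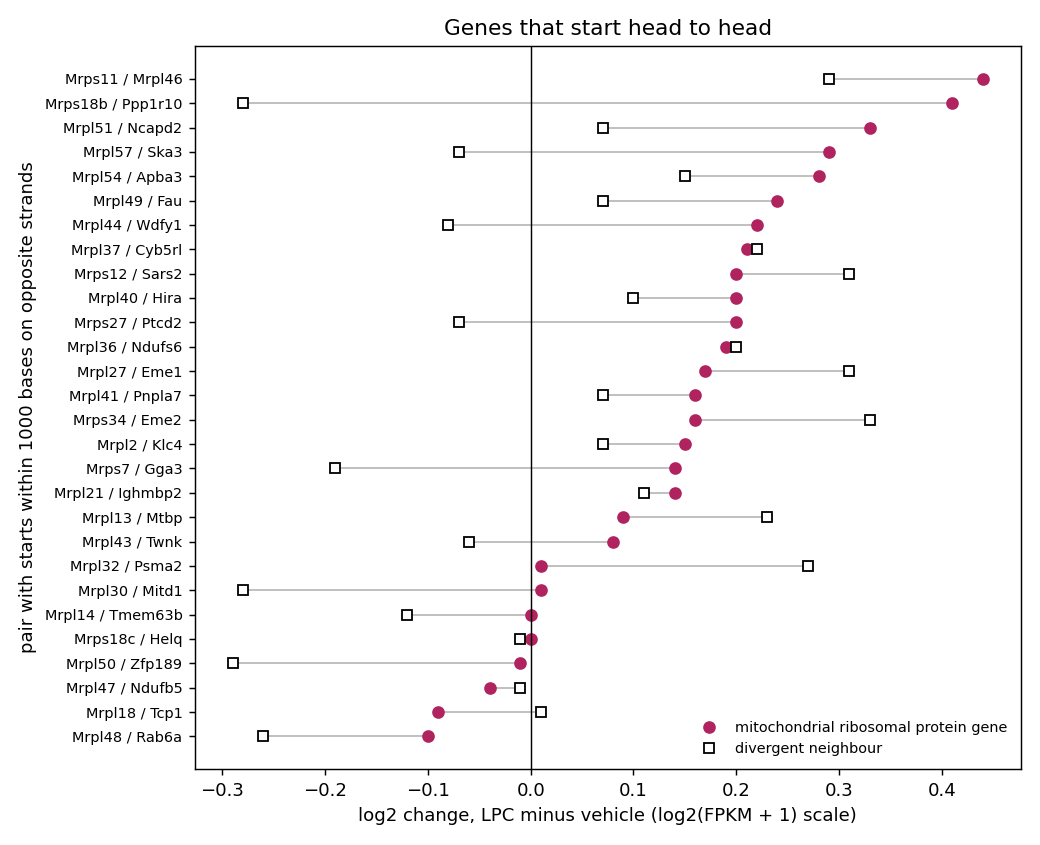
Log2 change (LPC minus vehicle) of genes of the set (filled circles) and of the tested neighbour that starts within 1000 bases on the other strand (open squares), 28 pairs. The value of the gene and of its neighbour lie on the same side of 0 in 18 of the 28 pairs, and Mrps18b (0.41) and Ppp1r10 (-0.28) lie on opposite sides. The count of 18 was not tested, and 88.3% of the 77 genes had positive values with or without such a neighbour. Mrps11 and Mrpl46 are both genes of the set.

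The exons of 17 of the 77 genes overlap those of another protein-coding gene, most on the other strand, and whether the reads were assigned by strand is not given in the sources used here. None of the 5 genes that rose is among them. With genes of any type counted, 25 of the 77 overlap another gene. Among these are Mrpl12 and Mrps18b, which rose and overlap non-coding genes on the other strand (Gm16755 and Gm16279). Of the 9 genes with values below 0, 4 overlap a protein-coding gene (Mrpl18 with Tcp1, Mrpl24 with Rrnad1, Mrpl47 with Actl6a and Ndufb5, Mrpl48 with Rab6a). Reads in these overlaps would be told apart from the neighbours' only by strand. The same holds for Mrps25 with Nr2c2 and Mrpl19 with Gcfc2.

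The other genes of mitochondrial translation were taken from lists by role. The counts of each list, here and below, stand beside 5.82% of all tested genes called higher and 7.91% called lower. Among 6 ribosomal proteins known under other symbols, only Ptcd3 rose, a pentatricopeptide repeat protein at the mRNA entry of the small subunit. Ptcd3 was at 18.62, 18.19 and 19.08 FPKM with vehicle and at 21.97, 25.38 and 22.65 with LPC (log2 change 0.31, adjusted p = 0.0387 by limma). The call was lost without any 1 of vehicle replicates 1 (adjusted p = 0.14), 2 (0.16) and 3 (0.0791) or of LPC replicates 1 (0.0554) and 2 (0.0628). All 6 values were positive: Chchd1 0.42, Aurkaip1 0.26, Gadd45gip1 0.24, Ict1 (Mrpl58, a peptidyl-tRNA hydrolase built into the large subunit) 0.12 and Dap3 0.09 did not pass. Their median was 0.25.

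Of 28 assembly factors 1 rose, the GTPase Noa1, which acts on the small subunit. It was at 17.36, 17.72 and 18.95 FPKM with vehicle and at 23.96, 25.15 and 25.08 with LPC, clear of overlap (log2 change 0.44, adjusted p = 0.00695 by limma). The median of the assembly factors was 0.05 and that of 16 tested translation factors -0.09. Among the latter, Pdf, which removes the formyl group from new chains, and the elongation factor Tsfm rose (log2 changes 0.45 and 0.37, adjusted p = 0.0399 and 0.0424 by limma). Both missed the threshold with 1 library left out, whether vehicle replicate 1 (adjusted p = 0.121 and 0.116), vehicle replicate 2 (0.133 and 0.162), or the third LPC library (0.093 and 0.0996), and Tsfm also without vehicle replicate 3 (0.0546) or LPC replicate 1 (0.12).

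Cars2, the mitochondrial cysteinyl-tRNA synthetase, had the largest change among all these genes. It was at 5.86, 5.44 and 5.91 FPKM with vehicle and at 10.08, 9.62 and 11.55 with LPC, with a log2 change of 0.76 (SE 0.10, adjusted p = 0.000675 by limma). Every LPC library was well above every vehicle library. Noa1 and Cars2 passed under all 14 alternatives run. Gatb, part of the enzyme that makes mitochondrial glutaminyl-tRNA, also rose, so that 2 of 20 genes for charging mitochondrial tRNAs did (median 0.08). Its log2 change was 0.35 (adjusted p = 0.0443 by limma), lost without any 1 of vehicle replicates 1 (0.182), 2 (0.119) and 3 (0.057) or of LPC replicates 1 (0.125) and 3 (0.102).

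Slirp, which stabilises mitochondrial mRNAs, was the gene that rose among 27 for mitochondrial transcription and RNA processing (median 0.07). Slirp had a log2 change of 0.43 (adjusted p = 0.0448 by limma), lost without any 1 of vehicle replicates 1 (0.0855), 2 (0.101) and 3 (0.081) or LPC replicate 3 (0.0853).

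For comparison, 5 of 77 tested nuclear-encoded respiratory chain genes rose and 0 fell, with 67 positive values and a median of 0.18. They include Uqcr11, Cox7a2 and Cox7b (log2 changes 0.62, 0.60 and 0.57, adjusted p = 0.0238, 0.0254 and 0.0226 by limma). These 3 missed the threshold with 1 library left out, whether vehicle replicate 1 (adjusted p = 0.0637, 0.054 and 0.0555), vehicle replicate 2 (0.0542, 0.0593 and 0.0593), or the first LPC library (0.0797, 0.0721 and 0.0525). Atp5j2 rose by 0.53 (adjusted p = 0.049 by limma) with overlapping groups, and missed the threshold with vehicle replicate 1 (0.123), vehicle replicate 2 (0.137), LPC replicate 1 (0.145) or the third LPC library (0.121) left out. Of 84 tested cytosolic ribosomal protein genes 0 rose and 0 fell by limma, with 2 higher and 1 lower at an unadjusted p under 0.05. Their median was 0.07, and its sign turned with the length and GC trend removed (-0.03) and without LPC replicate 3 (-0.07). The median of the 77 mitochondrial ribosomal genes was positive under each of these settings. The difference between the lists was not tested.

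**Figure D5:**
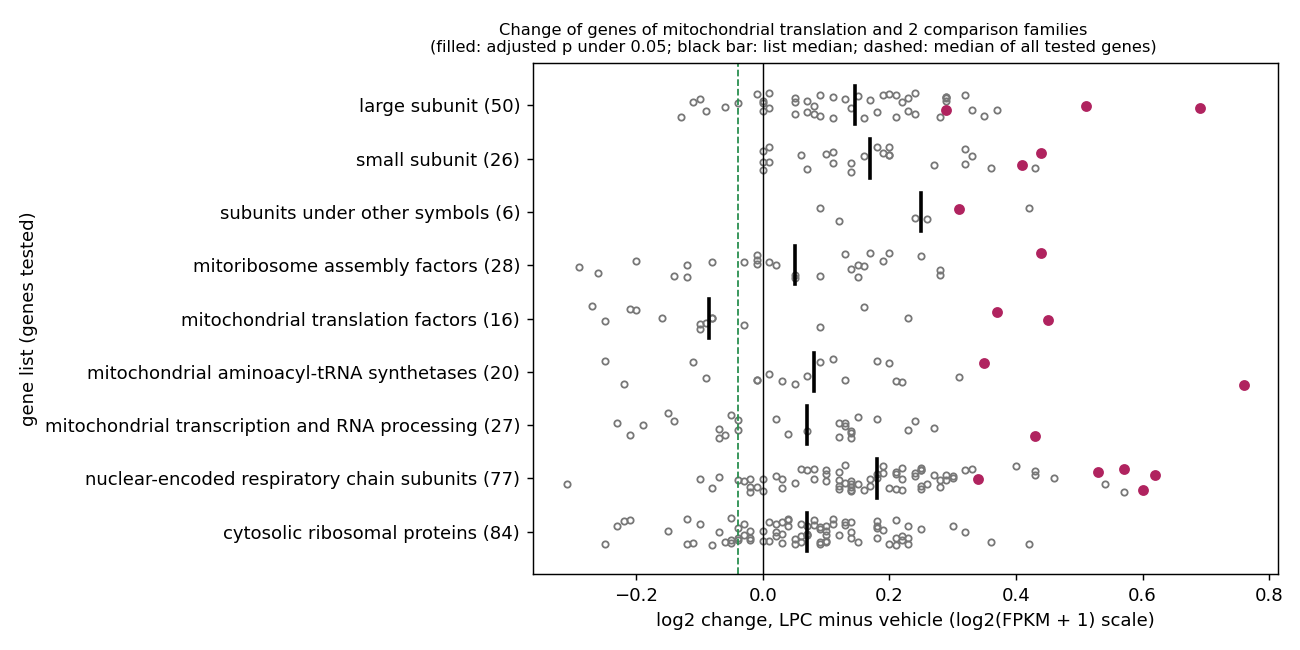
Log2 change (LPC minus vehicle) of the tested genes of each list, with the list median as a black bar, the median of all tested genes (-0.04) as a dashed line and genes with an adjusted p under 0.05 filled. The medians of both subunits (0.14 and 0.17) lie near that of the respiratory chain genes (0.18), and that of the cytosolic ribosomal proteins (0.07) is -0.07 without LPC replicate 3.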

How the data were processed

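RNA of 6 libraries (3 vehicle, 3 LPC) was sequenced on a BGISEQ-500; Bowtie2 placed the reads on GRCm38 and RSEM turned them into FPKM, per the labels' protocols. For versions, strand setting and filters, the sources used here give nothing. The deposited FPKM are rounded to the hundredth, so no count test was used. RSEM shares reads that match several genes by estimate, and FPKM is relative to each library's total. Of the listed genes 24 symbols turned into dates were restored, and 17918 identifiers (99.3%) matched RefSeq (GRCm38.p6), the source of coordinates and promoters; exon overlaps and neighbours came from GENCODE vM21.

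Genes with 1 FPKM or more in 3 or more libraries (10138) entered a limma-trend fit (R 4.3.3, limma 3.58.1) with the agent as its term. Values were log2(FPKM + 1), a pseudocount of 1, which understates the change of low genes. Called means an adjusted p under 0.05. The fit was also run on simulated data in which each gene varied independently. A shift shared by many genes of 1 library, as in LPC replicate 3, was not covered by it. Alternatives changed the scaling, the filter, the pseudocount, the replicate block, the trend with length and GC, and left out each library. With 3 libraries a group, a library left out leaves 2 there.

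Members and lists were chosen with earlier results of these data known. Named were the genes that passed, the 8 largest and 8 smallest changes, the 6 highest and 4 lowest levels, 12 genes with known roles (Mrpl58 is listed as Ict1), all subunits under other symbols and up to 4 passing genes of each other list. Mrpl46, Ppp1r10, Sars2 and the overlapping genes were added after their values were seen.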

Additional observations from a re-analysis of the deposited data

How the results depend on the processing

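The count of genes that rose (5) was 2 with no filter on low values, 10 with the length and GC trend removed and 3 to 12 with 1 library left out (3 without vehicle replicate 1 or 2, 12 without LPC replicate 2). The share of all tested genes called higher moved too, from 5.82% to 1.40% and 7.49%, and to 2.22, 2.38 and 7.98% without those 3 libraries. For the large subunit (3) these were 0, 5 and 1 to 8, and for the small subunit (2) 5 with the trend removed and 2 to 4 with 1 library left out. With the replicate number as a block the counts were 27, 18 and 9, with 11.6% of all tested genes called higher. The numbers do not pair the samples by the labels. With each gene's group mean subtracted, the remaining deviations of same-numbered libraries had correlations of 0.02, 0.56 and 0.41. By the same measure, vehicle replicate 1 correlated best with LPC replicate 3 (0.06). Without that subtraction, the correlations between libraries were 0.981 to 0.9971. The genes that fell numbered 0 and the median change was positive (0.07 to 0.20) under every alternative run. With no filter, Mrpl12 (adjusted p = 0.107), Mrpl20 (0.0781) and Mrpl38 (0.0546) were lost, and with the trend removed Mrpl38 (0.0545). Outside the 77 genes, calls were also lost on the equal-sum scale for Ptcd3 (0.197), Pdf (0.0667), Tsfm (0.105) and Gatb (0.14), by quantile normalization for Tsfm (0.0582), Slirp (0.0784) and Atp5j2 (0.0703), and by median centring for Pdf (0.0666), Tsfm (0.0668), Slirp (0.0801), Uqcr11 (0.0635), Cox7a2 (0.0656), Cox7b (0.0588) and Atp5j2 (0.102). With the trend removed Pdf (0.0508) and Atp5j2 (0.0624) were lost, with a pseudocount of 0.1 or a mean of 5 FPKM or more Atp5j2 (0.0519 and 0.0506), and with no filter each of these 9 genes (0.0719 to 0.21). The causes were not tested.

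The sign turned for the following genes, none of which passed the test. By quantile normalization, median centring and the length and GC trend, Mrpl1 was 0.04, 0.04 and 0.10, Mrpl47 was 0.01, 0.01 and 0.05, and Mrpl50 was 0.04, 0.04 and 0.06; Mrps16 was 0.05 by median centring and 0.05 with the trend removed. With libraries rescaled to an equal sum, by quantile normalization and with the trend removed, Mrpl23 was -0.002, -0.02 and -0.06, Mrpl30 was -0.05, -0.05 and -0.04, and Mrps18c was -0.05, -0.04 and -0.01. With 1 library left out, the lowest and highest values were -0.09 and 0.15 for Mrpl1, -0.17 and 0.02 for Mrpl18, -0.04 and 0.11 for Mrpl23, -0.17 and 0.10 for Mrpl30, -0.16 and 0.08 for Mrpl39, -0.04 and 0.29 for Mrpl41, -0.08 and 0.04 for Mrpl47, -0.04 and 0.02 for Mrpl50, -0.16 and 0.16 for Mrps16 and -0.14 and 0.10 for Mrps18c. Depth is only estimated here, and 3 libraries a group limit what could be called.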
